A study of Mus musculus with 2 samples.

Results

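The mitochondrial genome of the mouse encodes proteins of the respiratory chain together with ribosomal and transfer RNAs, and its mRNAs were measured here in monocytic myeloid-derived suppressor cells (M-MDSCs). The members were taken as every listed gene whose symbol starts with mt- and whose locus is MT, the name the deposited table gives to the mitochondrial chromosome. This rule found 13 of the 34745 genes, and all 13 encode proteins. The GENCODE M1 annotation places 13 protein genes, 2 rRNA genes and 22 tRNA genes on MT. None of the rRNA or tRNA genes was among the rows found, so they were not analysed here, and per the labels rRNA reads had been removed before counting.

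M-MDSCs are immature myeloid cells that hold back T cell responses. Bone marrow cells of C57/B6 mice, aged 6 to 8 weeks per the study's methods, were cultured for 7 days with GM-CSF at 50 ng/ml, a growth factor for myeloid cells, and M-MDSCs were then sorted as CD11b+Ly6G-Ly6C high cells. The CHBP- M-MDSC group received GM-CSF alone, and the CHBP+ M-MDSC group received GM-CSF and CHBP, a helix B surface peptide derived from erythropoietin. The methods give 20 μM CHBP, whereas the study's dose series is in nM. The strain is labelled C57BL/6 for CHBP- M-MDSC and C57BL/7 for CHBP+ M-MDSC. How many animals stand behind a library is not given in the sources used here. Each group is 1 library, so an effect of CHBP cannot be told apart from anything else in which the 2 libraries differ, and no test between conditions is possible.

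The counted reads came to 16484504 in the CHBP- library and 16280466 in the CHBP+ library, and 3 reads, the limit that a count of 0 allows, equal 0.182 and 0.184 CPM (reads scaled to the library total). The sorting marker Itgam, which encodes CD11b, is listed in 2 rows, with 157 and 99.99 FPKM (the count divided by gene length and library total) in the CHBP- library and 232 and 153 FPKM in the CHBP+ library. Ly6c2 had 56.9 and 34.0 FPKM, Ly6c1 had 3.70 and 2.91 FPKM, and Ly6g, the marker sorted against, had 2.19 and 2.12 FPKM. The monocyte markers Lyz2, Cd14, Csf1r and Ccr2 summed to 10079 FPKM in the CHBP- library and 8138 FPKM in the CHBP+ library. The 2 of 4 that were lower were Lyz2, at 9756 and 7829.9 FPKM, and Cd14, at 206 and 179 FPKM. Csf1r, at 113 and 126 FPKM, and Ccr2, at 3.29 and 3.84 FPKM, were higher. Lyz2 thus made up most of both sums. Among markers of other cells, 6 of 6 erythroid markers were lower in the CHBP+ library, with summed levels of 1305 and 602 FPKM, and all 6 were also below 0 with the trend of nuclear genes with length removed, as described below. Of the neutrophil markers 6 of 7 were lower, with 2009.5 and 1449.5 FPKM, of which S100a8 had 576 and 391 FPKM and S100a9 had 1269 and 937 FPKM, and 4 of 7 were below 0 with that trend removed. For comparison, 5882 of 10948 genes were lower in the CHBP+ library. The 4 mast cell and basophil markers (3 lower) summed to 200.2 and 172 FPKM, the 3 B cell markers (3 lower) to 25.8 and 17.0 FPKM, the 4 dendritic cell markers (2 reached 1 FPKM, both lower) to 20.8 and 16.4 FPKM, and the 4 T cell markers, none of which reached 1 FPKM, to 2.16 and 1.94 FPKM. No marker of these lists was at 0 reads in either library. The part of these cells in the values below was not tested, and in bulk RNA fewer cells of a type and less RNA per cell cannot be told apart.

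Mitochondria make ATP through the respiratory chain, whose complexes I, III and IV pump protons across the inner membrane and whose complex V lets them return to make ATP. The mitochondrial genome is a small circle, present in many copies per cell, that is read on both strands into long precursor RNAs. Transfer RNA genes lie between most of its protein genes, and their excision releases the mRNAs, which are then polyadenylated. Most subunits of these complexes are encoded in the nucleus and imported, so a complex needs both genomes.

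All 13 genes lay at the same positions in the deposited table, in GENCODE M1 (NCBIM37) and in RefSeq GRCm38, and 12 lay on the + strand, with only mt-Nd6 on the - strand. The 13 coding genes had GC contents from 31.9% to 41.1%. In 9 of them the first triplet was atg, whereas it was gtg in mt-Nd1, ata in mt-Nd2, att in mt-Nd3 and atc in mt-Nd5. In mt-Co3, mt-Nd4 and mt-Cytb the last codon was a single t, which polyadenylation is known to complete to a stop codon.

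The stretches that the values below turn on are shown first, read 5′ to 3′ on the + strand of chrM in NCBIM37. The reading frames of mt-Atp8 and mt-Atp6 overlap by 43 bases, those of mt-Nd4l and mt-Nd4 by 7 bases, those of mt-Atp6 and mt-Co3 by 1 base, and the opposite-strand genes mt-Nd5 and mt-Nd6 by 14 bases. Capitals mark the bases that both genes of a pair share, except in mt-Nd3, where the capital marks the base that differs in a nuclear copy on chromosome 1, described below. mt-Atp8 is shown whole (chrM:7766-7969), mt-Nd4l whole (chrM:9877-10173), the start of mt-Nd3 as 60 bases (chrM:9459-9518), the overlap of mt-Nd5 and mt-Nd6 with 20 bases on each side (chrM:13532-13585), and the join of mt-Atp6 and mt-Co3 (chrM:8587-8628).
mt-Atp8: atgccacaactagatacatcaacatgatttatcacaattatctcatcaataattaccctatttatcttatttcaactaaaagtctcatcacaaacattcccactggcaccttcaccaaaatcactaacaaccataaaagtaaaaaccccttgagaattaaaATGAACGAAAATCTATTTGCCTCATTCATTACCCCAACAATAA
mt-Nd4l: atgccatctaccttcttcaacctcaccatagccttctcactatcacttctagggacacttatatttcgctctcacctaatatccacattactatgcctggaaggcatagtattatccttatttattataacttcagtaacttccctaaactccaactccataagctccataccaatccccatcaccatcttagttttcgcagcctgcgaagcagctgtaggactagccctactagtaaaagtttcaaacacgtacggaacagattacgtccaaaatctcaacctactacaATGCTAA
start of mt-Nd3: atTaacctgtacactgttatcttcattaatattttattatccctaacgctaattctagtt
end of mt-Nd5 and end of mt-Nd6: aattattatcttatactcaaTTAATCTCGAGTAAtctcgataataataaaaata
end of mt-Atp6 and start of mt-Co3: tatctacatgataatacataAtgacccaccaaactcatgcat

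MT genes were among the most abundant mRNAs in both libraries. Together they took 686567 reads in the CHBP- library and 677477 in the CHBP+ library, which are 4.16% (95% Clopper-Pearson interval 4.16% to 4.17%) and 4.16% (4.15% to 4.17%) of all counted reads. The log2 ratio of these shares, CHBP+ over CHBP-, was -0.0013, with an interval from -0.0061 to 0.0036. A difference in the summed share of the MT rows alone was thus not detectable at this depth. This rests on the rows counted. With the reads of candidate nuclear copies added, described below, the shares were 4.42% and 4.37%. Without the nuclear genes with the most reads they were 4.52% and 4.49%. No interval of the ratio was taken for either setting. Intervals here and below are at 95% and cover counting error only, since reads are not independent molecules. They are exact, except that those of a ratio of 2 genes use a normal approximation to the Poisson errors of the reads. By FPKM, 11 of the 13 genes were among the 50 highest of all genes in each library, and 6 were among the 10 highest. These ranks rest on the gene length behind each FPKM, which for nuclear genes was not checked against mRNA length. The highest nuclear genes for comparison were Fth1, the ferritin heavy chain, at 13195 FPKM in the CHBP- library and 9707 FPKM in the CHBP+ library, Lyz2, lysozyme, at 9756 and 7829.9 FPKM, and Tpt1-ps3, at 3913 and 2962 FPKM.

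The levels of the 13 genes differed widely within each library although 12 of them are read from the same strand. mt-Co1, the core subunit of complex IV, was the highest, at 10821 FPKM in the CHBP- library and 10999 FPKM in the CHBP+ library, and took 40.1% and 40.8% of all MT reads. It was the second highest of all genes by FPKM in the CHBP- library and the highest in the CHBP+ library. mt-Nd6, a complex I subunit and the one - strand gene, was the lowest, at 34.5 and 41.4 FPKM. Whether strand was used in the counting is not given in the sources used here, and without it reads from the opposite strand would be counted on mt-Nd6 as well. The highest and lowest genes were 314-fold apart in the CHBP- library and 266-fold in the CHBP+ library. The order of the 13 genes was close to the same in both libraries (Spearman's rho of FPKM = 0.967 across 13 genes of 2 libraries, a description, since the genes share the libraries and a precursor).

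**Figure D1:**
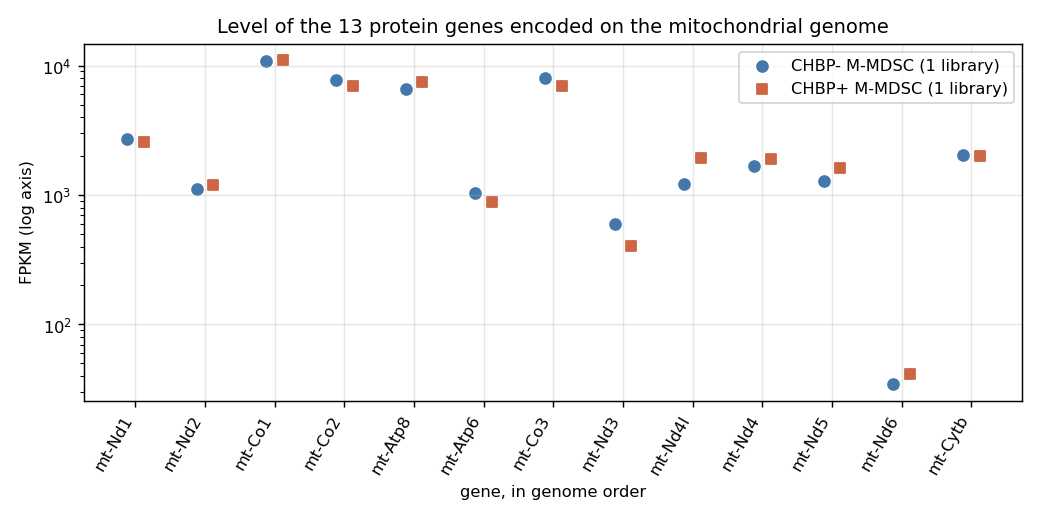
FPKM of the 13 MT genes (log axis) in the CHBP- and CHBP+ M-MDSC libraries, 1 point per gene and library, in genome order. mt-Co1 is the highest gene at 10821 and 10999 FPKM and mt-Nd6 the lowest at 34.5 and 41.4 FPKM.

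Between the libraries the 13 genes did not move one way. The log2 ratio of a gene was taken as the base 2 logarithm of its FPKM in the CHBP+ library, with 1 added, over that in the CHBP- library, also with 1 added. The median of the 13 genes was 0.02, beside -0.03 over the 10948 genes that reached 1 FPKM in either library. Of the 13 genes, 7 were above 0 and 6 were below, from -0.57 (mt-Nd3) to 0.65 (mt-Nd4l). The median size of the log2 ratio, sign left aside, was 0.18 for the 13 genes and 0.19 for all genes. At least 1.5-fold higher in the CHBP+ library was 1 of 13 (mt-Nd4l), beside 3.42% of all genes, and none was 1.5-fold lower, beside 2.89%, or 6.3% either way. Among 3368 genes with at least 1000 reads in both libraries, 4.63% were past 1.5-fold either way.

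The reads of each gene were set against the library totals with a two-sided exact binomial test, adjusted by the Benjamini-Hochberg method over all 14162 genes with at least 10 reads. This test compares the 2 libraries and not the conditions. At an adjusted p of at most 0.05 it called 12 of the 13 genes, 7 higher and 5 lower in the CHBP+ library, beside 44.1% of all genes (21.9% higher and 22.2% lower). Among the genes with at least 1000 reads in both libraries it called 72.5%. MT genes have many reads, so small differences pass. mt-Cytb was the gene not called (adjusted p = 0.531), and mt-Nd6, with the fewest reads, was called at an adjusted p of 0.0463 and was lost in both other forms of the test (adjusted p = 0.0506 against the reads outside MT, 0.0584 with all genes of at least 1 read tested).

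**Figure D2:**
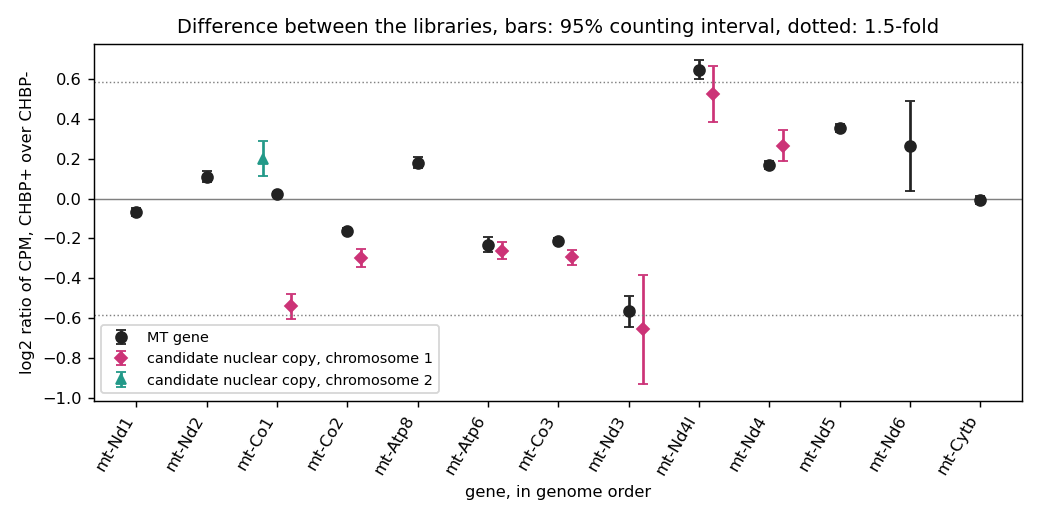
Log2 ratio of the CPM of each MT gene (CHBP+ over CHBP-) in genome order, with bars for its exact 95% interval, which covers counting error only. Coloured markers beside a gene show its candidate nuclear copies, described below, with the same kind of interval. mt-Nd4l is the highest at 0.65 and mt-Nd3 the lowest at -0.57, and the interval of mt-Cytb spans 0.

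Complex I, the NADH dehydrogenase that feeds electrons into the chain, had 7 mt-encoded subunits. In mt-Nd1 (ENSMUSG00000064341, MT 2751 to 3707) the levels were 2687 FPKM in the CHBP- library and 2566 FPKM in the CHBP+ library (42396 and 39977 reads), a log2 ratio of -0.07. In mt-Nd2 (ENSMUSG00000064345, MT 3914 to 4951) they were 1109.6 and 1197 FPKM (18987 and 20235 reads), a log2 ratio of 0.11. The first 2 subunits of the genome thus differed by little and in opposite directions.

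mt-Nd3 (ENSMUSG00000064360, MT 9459 to 9806) had 597 FPKM in the CHBP- library and 403 FPKM in the CHBP+ library (3425 and 2284 reads), 1.48-fold lower, with an interval of the log2 ratio from -0.64 to -0.49. mt-Nd4l (ENSMUSG00000065947, MT 9877 to 10173), the next protein gene downstream, had 1225 FPKM in the CHBP- library and 1919.8 FPKM in the CHBP+ library (5996 and 9283 reads), 1.57-fold higher, with an interval from 0.60 to 0.70. These neighbours, with mt-Tr between them, were the lowest and the highest of the 13 log2 ratios. Their FPKM ratio, mt-Nd3 over mt-Nd4l, was 0.488 in the CHBP- library and 0.210 in the CHBP+ library.

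mt-Nd4 (ENSMUSG00000064363, MT 10167 to 11544) had 1688 FPKM in the CHBP- library and 1897 FPKM in the CHBP+ library (38346 and 42569 reads), a log2 ratio of 0.17. mt-Nd5 (ENSMUSG00000064367, MT 11742 to 13565) had 1274 and 1628 FPKM (38314 and 48346 reads), a log2 ratio of 0.35 with an interval from 0.33 to 0.37, or 1.28-fold higher. mt-Nd6 (ENSMUSG00000064368, MT 13552 to 14070) had 295 and 350 reads and a log2 ratio of 0.26 with an interval from 0.04 to 0.49. Of the 7 complex I subunits, 5 were above 0, and their summed share of all counted reads was 0.896% (0.892% to 0.901%) in the CHBP- library and 1.00% (0.997% to 1.01%) in the CHBP+ library, a log2 ratio of 0.16 (0.15 to 0.17).

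Complex IV, cytochrome c oxidase, had 3 mt-encoded subunits that form its catalytic core. mt-Co1 (ENSMUSG00000064351, MT 5328 to 6872) differed by a log2 ratio of 0.02. mt-Co2 (ENSMUSG00000064354, MT 7013 to 7696) had 7707 FPKM in the CHBP- library and 6895 FPKM in the CHBP+ library (86897 and 76777 reads), a log2 ratio of -0.16. mt-Co3 (ENSMUSG00000064358, MT 8607 to 9390) had 8067 and 6959 FPKM (104251 and 88820 reads), a log2 ratio of -0.21. The summed share of the 3 genes was 2.83% (2.82% to 2.84%) in the CHBP- library and 2.72% (2.71% to 2.72%) in the CHBP+ library, a log2 ratio of -0.06. Within the complex the mt-Co1 level per mt-Co3 level went from 1.34 to 1.58, a log2 change of 0.24 (0.22 to 0.25).

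Complex V, ATP synthase, had mt-Atp6, which forms part of the proton channel, and mt-Atp8, a small subunit next to it. mt-Atp8 (ENSMUSG00000064356, MT 7766 to 7969) had 6626 FPKM in the CHBP- library and 7511 FPKM in the CHBP+ library (22282 and 24947 reads), a log2 ratio of 0.18. mt-Atp6 (ENSMUSG00000064357, MT 7927 to 8607) had 1039 and 885 FPKM (11661 and 9814 reads), a log2 ratio of -0.23. The genes of the pair, which share a transcript in the known biology, thus differed in sign. Complex III, the cytochrome bc1 complex, had mt-Cytb (ENSMUSG00000064370, MT 14145 to 15288) alone, at 2021 and 2009 FPKM (38121 and 37417 reads), a log2 ratio of -0.01.

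Neighbouring genes were compared through the ratio of their FPKM within a library. mt-Nd4l and mt-Nd4 are carried on 1 mRNA in the known biology. The FPKM of mt-Nd4l per FPKM of mt-Nd4 was 0.725 in the CHBP- library and 1.01 in the CHBP+ library, a log2 change of 0.48 (0.43 to 0.53). The FPKM of mt-Atp8 per FPKM of mt-Atp6 was 6.38 and 8.49, a log2 change of 0.41 (0.37 to 0.46). The counted level of mt-Atp8 was thus several-fold above that of mt-Atp6 in both libraries, unlike mt-Nd4l beside mt-Nd4. A candidate nuclear copy of mt-Atp6, described below, also took reads, whereas mt-Atp8 had no such row. The part of the copy's reads in this gap was not tested. With those reads added, mt-Atp6 had 1925 and 1624 FPKM, beside 6626 and 7511 FPKM for mt-Atp8. By contrast mt-Atp6 per mt-Co3, which share 1 base, was 0.129 and 0.127, with a change whose interval spans 0 (-0.06 to 0.02), as does that of mt-Nd5 per mt-Nd6 (37.0 and 39.3, -0.14 to 0.31). The handling of reads that lie on 2 genes is not given in the sources used here.

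A large part of MT also has near-identical copies in the nuclear genome. In NCBIM37 the longest is on chromosome 1 from 24618374 to 24623027, in reverse orientation, and holds MT 6390 to 11042, which is 28.5% of MT, at 99.936% identity over 4654 aligned columns. The substitutions between them were A6393T in mt-Co1 and T9461C in mt-Nd3, with positions counted on MT and the MT base given first, and 1 gap lay in mt-Tr. Of all 75-base windows of the 13 genes, the read length, 38.5% were found exactly in nuclear chromosomes. Every window of 5 genes (mt-Co2, mt-Atp8, mt-Atp6, mt-Co3, mt-Nd4l) was found there, as were 98.9% of those of mt-Nd3, 61.5% of mt-Nd4 and 39.8% of mt-Co1. In mt-Nd2 it was 5.71% and in mt-Nd5 1.66%, and mt-Nd1, mt-Nd6 and mt-Cytb had none.

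**Figure D3:**
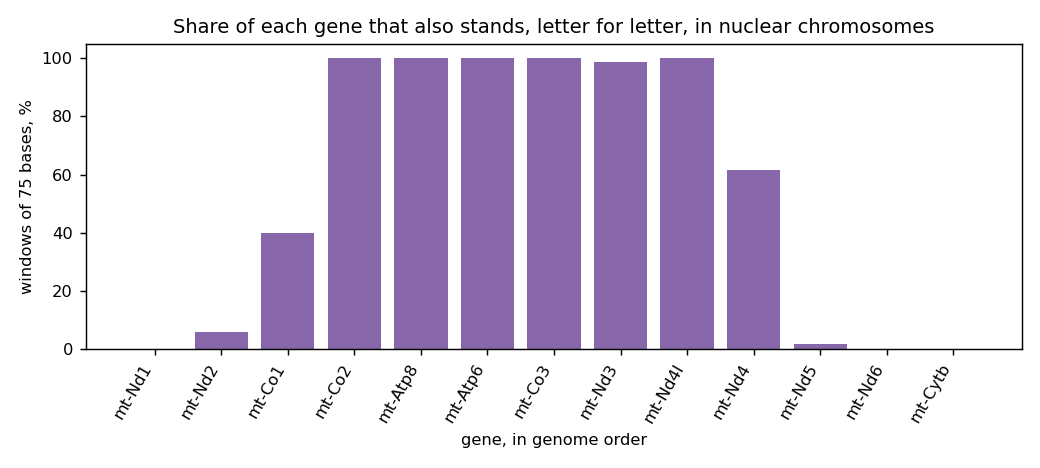
Percent of the 75-base windows of each MT gene found exactly in the nuclear chromosomes of NCBIM37. Windows of mt-Co2, mt-Atp8, mt-Atp6, mt-Co3 and mt-Nd4l are all found there, whereas those of mt-Nd1, mt-Nd6 and mt-Cytb are not.

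The log2 ratios were not ordered by this measure in a simple way. The 6 genes copied wholly or almost wholly had a median log2 ratio of -0.19 and held both extremes, -0.57 and 0.65. The 5 genes with little or no copied sequence ran from -0.07 to 0.35, with a median of 0.11, and the 2 partly copied genes had 0.02 and 0.17. Across the 13 genes, the log2 ratio had a Spearman's rho of -0.23 with the percent of windows, 0.07 with length and 0.03 with GC content, and across the 12 + strand genes it was 0.23 with the start position. These are descriptions over genes that share libraries and a precursor.

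Rows of the table whose positions mirror MT stretches, called candidate copies here because their sequence in the files' build, GRCm38, was not checked, took reads too. The 7 rows on chromosome 1 had 39335 reads in the CHBP- library and 32503 in the CHBP+ library, and with 3 rows on chromosome 2 the total was 41328 and 34760 reads, or 0.251% and 0.214% of counted reads. mt-Atp6 had 1.17 reads in the CHBP- library and 1.20 in the CHBP+ library per read on its candidate copy Gm10925 (9945 and 8195 reads). mt-Co3 had 8.49 and 8.99 reads per read on Gm28437 (12275 and 9877 reads). The division between gene and copy thus differed among the genes of 1 stretch.

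The candidate copies of the extreme genes had log2 ratios of the same sign as the genes. Gm28438, the candidate copy of mt-Nd3, had 289 and 181 reads, a log2 ratio of -0.64, and Gm10222, that of mt-Nd4l, had 703 and 998 reads, a log2 ratio of 0.52. Gm28439, which mirrors 876 of the 1378 bases of mt-Nd4, had 2403 and 2853 reads, a log2 ratio of 0.26. Gm28661 of mt-Co2 (8675 and 6975 reads), Gm28437 and Gm10925 had log2 ratios from -0.30 to -0.26. Gm29216, which mirrors the last 492 bases of mt-Co1, had 5045 and 3424 reads, a log2 ratio of -0.54, unlike mt-Co1 at 0.02. Gm13340 on chromosome 2, which mirrors all of mt-Co1, had 1981 and 2249 reads, a log2 ratio of 0.20, and Gm13339 and Gm13341 had 11 and 5, and 1 and 3 reads. With the reads of the candidate copies added to the genes, a choice made after seeing the data, mt-Nd3 had a log2 ratio of -0.57 and mt-Nd4l one of 0.64. The reads of a gene and an identical copy cannot be told apart, and how reads matching several places were counted is not given in the sources used here.

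Gene length is a property to which the log2 ratios of nuclear genes were related. Across 10935 nuclear genes of at least 1 FPKM, the log2 ratio and length had a Spearman's rho of 0.479 (a description across genes), and short genes were mostly lower in the CHBP+ library. Nuclear genes with a recovered length in the range of the MT genes, 204 to 1824 bases, numbered 1562. Their median log2 ratio was -0.28, with 294 above 0 and 1268 below. Of these, 48 were 1.5-fold higher and 153 were 1.5-fold lower. As many as 37 were as high as mt-Nd4l and 179 as low as mt-Nd3. Against nuclear genes of like length, 12 of the 13 MT genes lay above the median, all but mt-Nd3. The 10935 nuclear genes include 9 candidate copies of MT genes, which were not left out of these comparisons. mt-Atp8 had only 4 such neighbours. Gene length here was recovered from the deposited count and FPKM, and for nuclear genes it was not checked against mRNA length. It was 7116 bases in Ndufb2 and 11134 bases in Ndufs1, for example. Genes of like length are therefore alike in this recovered length, which need not be the length of their mRNAs.

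**Figure D4:**
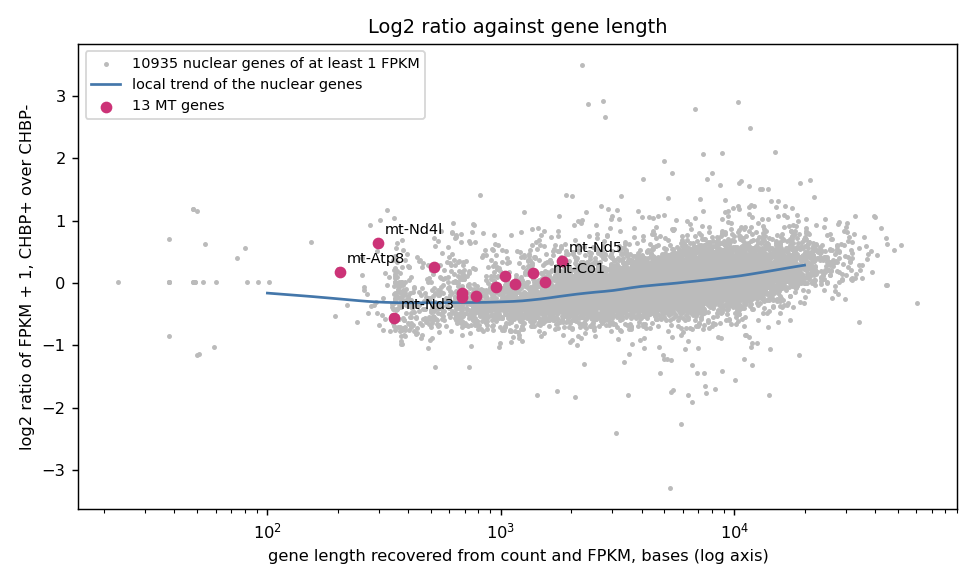
Log2 ratio against gene length in bases, recovered from count and FPKM (log axis), for 10935 nuclear genes (grey), their local trend (line) and the 13 MT genes (large points). The MT genes other than mt-Nd3 lie above the trend, which runs below 0 at their lengths.

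With the length trend of the nuclear genes subtracted, the median of the 13 MT genes was 0.28 in place of 0.02, and mt-Nd4l was at 0.95 and mt-Nd3 at -0.25. The sign changed in mt-Nd1, mt-Co2, mt-Atp6, mt-Co3 and mt-Cytb, which then had 0.24, 0.15, 0.08, 0.10 and 0.28. The direction of these genes between the libraries therefore depends on whether the trend is removed.

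The nuclear partners of the mt-encoded subunits were lower in the CHBP+ library almost throughout. Of 70 nuclear subunits of complexes I, III, IV and V kept (of 71 listed), 69 had a log2 ratio below 0 and 1 above, with a median of -0.43, and 16 were at least 1.5-fold lower, beside the 2.89% of all genes. The read test called 63 of the 71 lower and 1 higher, beside 22.2% and 21.9%. These lists were chosen with earlier results of these data known. The medians by complex were -0.44 in complex I (36 genes), -0.33 in complex III (9), -0.53 in complex IV (12) and -0.35 in complex V (14), against 0.02 for the 13 mt-encoded genes.

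The lowest and highest of each list show the range. In complex I, Ndufa12, an accessory subunit, had 8.004 FPKM in the CHBP- library and 3.78 in the CHBP+ library, a log2 ratio of -0.91, and Ndufc1 had 4.31 and 2.20 FPKM, a log2 ratio of -0.73. Ndufs1, an iron-sulfur core subunit, was the one gene above 0, at 10.3 and 11.1 FPKM (log2 ratio 0.10), and Ndufb2 had -0.16. In complex III, Uqcr11 had 19.8 and 9.75 FPKM, a log2 ratio of -0.95, and Uqcrq -0.69, whereas the core proteins Uqcrc1 and Uqcrc2 had -0.23 and -0.06. In complex IV, Cox6a1 had 76.6 and 42.7 FPKM, a log2 ratio of -0.83, Cox7c -0.71, Cox6b1 -0.37 and Cox6c -0.21. In complex V, Atp5e, the epsilon subunit, had 15.6 and 8.24 FPKM, a log2 ratio of -0.84, Atp5d -0.69, and the catalytic subunits Atp5b and Atp5a1 -0.18 and -0.15.

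The 4 genes of complex II, which has no mt-encoded subunit, had a median of -0.28, from -0.34 (Sdhb) and -0.29 (Sdhc) to -0.27 (Sdhd) and 0.01 (Sdha). With the length trend removed, the medians were -0.26 in the subunits of complexes I, III, IV and V and -0.10 in complex II. The summed FPKM of the 13 MT genes per summed FPKM of the nuclear subunits was 13.7 in the CHBP- library and 18.6 in the CHBP+ library, and within complex I 8.54 and 13.3. The MT sum was 44896 and 44911 FPKM, and the nuclear sum was 3267 and 2412 FPKM. Within complex I the MT sum was 8616 FPKM in the CHBP- library and 9653 FPKM in the CHBP+ library. The nuclear sum was 1009 and 728 FPKM. The size of these MT to nuclear ratios rests on the gene lengths behind the FPKM. Over the nuclear subunits kept the recovered length had a median of 2234 bases, and in Ndufs1 it was 11134 bases. For nuclear genes it was not checked against mRNA length.

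**Figure D5:**
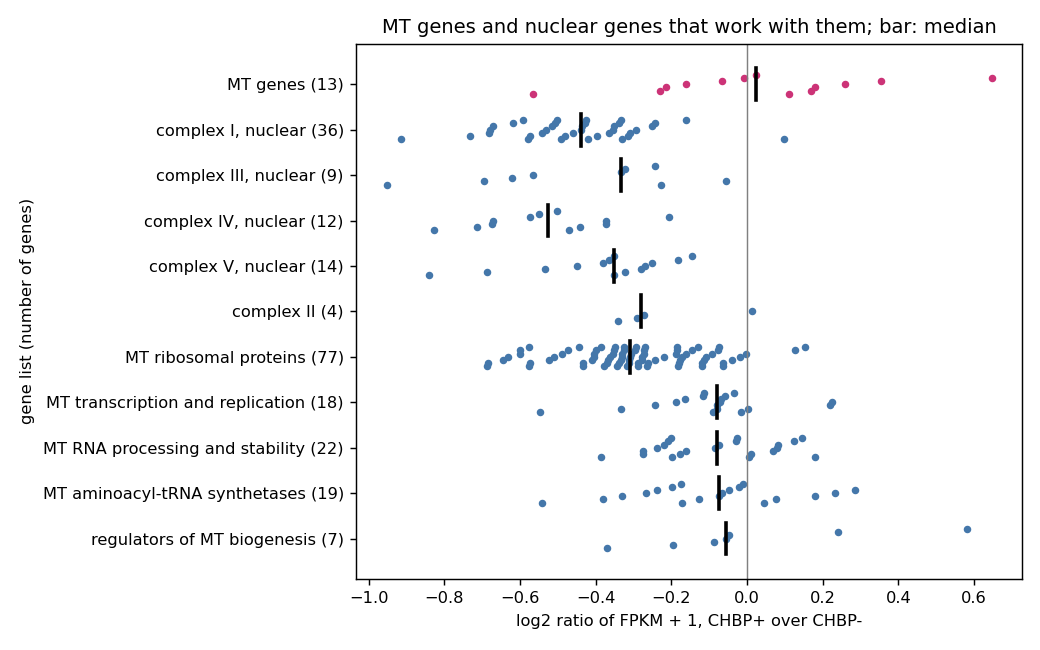
Log2 ratios (CHBP+ over CHBP-) of the MT genes and of nuclear gene lists, 1 point per gene with the median marked. The 13 MT genes have a median of 0.02 and the 70 nuclear subunits of complexes I, III, IV and V a median of -0.43.

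Nuclear genes for MT transcription and replication differed less. Of 18 genes, 15 were below 0 and 3 above, with a median of -0.08. None was past 1.5-fold with 1 FPKM added to each level, beside 6.3% of all genes. That addition weighs more on low levels, and the median level here was 4.61 FPKM in the CHBP- library and 3.81 FPKM in the CHBP+ library. Tfam, which packages MT DNA and is needed to start transcription, had 677 and 551 reads, 7.73 and 6.37 FPKM, a log2 ratio of -0.24. Polrmt, the MT RNA polymerase, had -0.08, Tfb2m, its initiation partner, 0.23, Primpol 0.22, Polg, the MT DNA polymerase, -0.06, and Peo1, the replicative helicase, -0.03. Ssbp1, the single-strand binding protein, had -0.33 and Mterf1b -0.55. Mterf1b had 5.19 and 3.23 FPKM, and its log2 ratio of CPM, with nothing added, was -0.68 (-1.13 to -0.25), which is past 1.5-fold. The read test called 1 of the 18 higher and 3 lower, beside 21.9% and 22.2% of all genes. With the length trend removed, the median was -0.04, with 8 above 0 and 10 below.

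The 22 genes of MT RNA processing and stability, which cut and keep the mRNAs measured here, also had a median of -0.08 (8 above, 14 below), and -0.06 with the length trend removed. None was past 1.5-fold with 1 FPKM added to each level, beside 6.3% of all genes. The read test called 1 higher and 7 lower, beside 21.9% and 22.2%. Hsd17b10 and Trmt10c, parts of the RNase P that cuts before each tRNA, had log2 ratios of -0.39 and -0.21. Elac2, which cuts after it, had 0.12. Lrpprc and Slirp, which together stabilise the mRNAs, had 0.07 and -0.18, Mtpap, the MT poly(A) polymerase, 0.08, and Pnpt1, which degrades RNA, 0.18. Rexo2 had -0.28 and Ptcd3 0.15.

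Of the 77 MT ribosomal protein genes, which translate the 13 mRNAs, 75 were below 0 and 2 above, with a median of -0.31, and 6 were at least 1.5-fold lower, beside 2.89% of all genes. With the length trend removed, the median was -0.17, with 66 below 0 and 11 above. The read test called 56 lower and none higher, beside 22.2% and 21.9% of all genes. Mrpl23 and Mrps12 were the lowest, at -0.69 and -0.68, and Mrps21 and Mrpl1 were the highest, at 0.13 and 0.15. The 19 MT aminoacyl-tRNA synthetase genes kept (of 20) had a median of -0.07, from Sars2 at -0.54 and Cars2 at -0.38 to Iars2 at 0.23 and Mars2 at 0.29, and the median was -0.14 with the length trend removed. The regulators of MT biogenesis kept, 7 of 9, had a median of -0.06, and -0.15 with the length trend removed. Among them Pprc1 was the highest at 0.58 (2.02 and 3.52 FPKM), Gabpa had 0.24, Nrf1 -0.06, Esrra -0.19 and Myc -0.37. Without the 1 FPKM added, the log2 ratio of CPM was 0.80 in Pprc1. Ppargc1b had 27 and 46 reads, a log2 ratio of CPM of 0.79 (0.07 to 1.53), and the read test did not call it (adjusted p = 0.0573). Ppargc1a, the best known of these regulators, had 2 and 0 reads, so a change in it was not detectable at this depth. Of the 8 regulators tested, the read test called 2 higher and 1 lower, beside 21.9% and 22.2% of all genes.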

How the data were processed

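RNA of 1 CHBP- M-MDSC and 1 CHBP+ M-MDSC library was sequenced, and samples were grouped by their labels. Per the labels, the authors removed adapters, 3' bases under quality 20, reads under 25 bases and rRNA reads with Seqtk. The study's methods name TopHat2, mm9 and HT-seq for single-end reads of 75 bases, whereas the submitters' processing notes list HISAT2 2.0.4, Cufflinks 2.1.1, Cuffdiff and GRCm38, and the deposited coordinates are those of GRCm38. How strand and reads with several matches were handled is not given in the sources used here. The deposited counts are raw reads per gene, and the deposited FPKM are those counts divided by gene length and the library's total by the authors.

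The log2 ratio, its pseudocount of 1, the minimum of 1 FPKM in at least 1 library and the 1.5-fold threshold are as described beside the results. No model was fitted across replicates, since there is 1 library per group, and the study's DESeq test was not repeated. Exact 95% intervals and the two-sided exact binomial test (scipy 1.17.1, Benjamini-Hochberg adjustment, threshold 0.05) cover counting error only. The length trend was a lowess fit (fraction 0.2, statsmodels 0.14.6). MT was aligned to the nuclear chromosomes of NCBIM37 with megablast (BLAST 2.17.0, word 28), and sequences were read from that build. On simulated Poisson counts, the read test joined to the 1.5-fold threshold called 200 of 200 genes changed 2-fold. It called 0 of 14008 unchanged genes out of 14208. The changed genes were drawn from those with at least 200 reads in the CHBP- library. The read test without the fold threshold, as used above, was not scored on simulated data. Python 3.11.15, numpy 2.4.6, pandas 2.3.3, matplotlib 3.10.9 and, in R 4.3.3, edgeR 4.0.16 for trimmed means of M values were used.

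Every MT gene was named. Of each list of nuclear genes for mitochondrial proteins the 2 highest and 2 lowest log2 ratios were named, with further regulators and the 3 nuclear genes highest by FPKM. Although the rule covered them, marker lists other than the sorting and monocyte markers are given by counts and summed levels, with few names. The members and lists were chosen with earlier results of these data known. Pseudogene rows were left out of complex V, and Ndufa4 was counted in complexes I and IV. The alternatives tried were no filter or 5 FPKM, a pseudocount of 0.1, CPM, other scalings, length trend removal, a fold of 2, other denominators, and, chosen after seeing the data, candidate copies added and mt-Nd3 and mt-Nd4l left out.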

Additional observations from a re-analysis of the deposited data

Results flagged for a closer look

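Reads on the candidate nuclear copies of MT genes stood apart because these rows lie outside the MT rows that the comparisons use. The 10 rows took 41328 reads in the CHBP- library and 34760 reads in the CHBP+ library, both far above the limit of 3 reads that a count of 0 allows. They equal 5.68% and 4.88% of the reads of MT genes and candidate copies together. Whether these reads came from MT or from the nucleus was not tested.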

How the results depend on the processing

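With the median log2 ratio of all genes set to 0, the median of the 13 MT genes was 0.052, and with the length trend removed it was 0.28, against 0.02 as reported. Trend removal moved all 13 genes and changed the sign of 5, and moved the median of the nuclear subunits from -0.43 to -0.26. Median centring moved 8 genes and trimmed means of M values moved 3, each with 1 change of sign. The other settings moved none of the 13 genes by more than their counting intervals. Without mt-Nd3 and mt-Nd4l, left out after seeing the data, the median was 0.02. At a fold threshold of 2, 0 genes were higher in place of 1. The share of reads on MT genes was 4.52% in the CHBP- library and 4.49% in the CHBP+ library without 11 nuclear genes (the 10 with the most reads in either library), and 4.42% and 4.37% with candidate copies added. The read test called 11 of 13 genes in both of its other forms, with mt-Nd6 lost. The cause of these changes was not tested. Leaving out MT rRNA and tRNA genes changed nothing, since no such row was found. No paired analysis was possible because each group is a single library, and for the same reason leaving out a replicate could not be done.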
